A study of Mus musculus with 72 samples.

Results

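The genes that move iron into cells, store it, export it and sense it were followed in mouse liver and gastrocnemius muscle through a 24-h fast and a day of 6 sampling times. They are 10 genes chosen by name: Tfrc, Tfr2, Trf, Hamp, Slc40a1, Slc11a2, Fth1, Ftl1, Aco1 and Ireb2. All 10 are listed among the 20561 genes of the whole-gene table and the 19433 genes of the exonic and the intronic table. Tissues came from male C57BL/6J mice aged 8 weeks, kept in 12 h of light and 12 h of dark. The mice either ate chow freely (fed) or had no food for 24 h (fasted), and tissues were taken every 4 h from Zeitgeber time (ZT) 0, which is lights on, to ZT20. Each of the 24 groups of tissue, feeding state and time held 3 libraries, so a feeding state had 18 libraries per tissue. The labels give replicate numbers but no litter or day, and p-values therefore reflect the spread among labelled replicates, which may be technical. For effects of the fast over all times in a tissue, p-values also reflect changes of the effect with time. Levels are FPKM, a read density scaled to transcript length and library size, given as mean ± SD of 18 libraries unless stated. Effects are fasted minus fed on the scale of log2(FPKM + 0.5) with standard errors (SE), which understates changes of weakly expressed genes. The test was limma over all genes tested, with Benjamini-Hochberg adjusted p under 0.05 as the threshold.

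As background, transferrin (Trf), secreted by hepatocytes, carries ferric iron in plasma, and transferrin receptor 1 (Tfrc) takes it into cells, where the transporter DMT1 (Slc11a2) moves the reduced iron out of the endosome. Cytosolic iron is stored in a shell of ferritin heavy (Fth1) and light (Ftl1) chains and leaves the cell through ferroportin (Slc40a1). Hepcidin (Hamp), a hormone of hepatocytes, triggers the breakdown of ferroportin, and transferrin receptor 2 (Tfr2) is part of the iron sensing that sets hepcidin. The iron regulatory proteins IRP1 (Aco1, which is a cytosolic aconitase when it holds an iron-sulfur cluster) and IRP2 (Ireb2) bind iron-responsive elements. In the 5′ untranslated region of a transcript such a hairpin lets them block translation, and in the 3′ untranslated region of Tfrc it protects the transcript from decay.

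These hairpins are shown because a pattern of them matched 4 of the 10 genes and they can bear on how transcript level and protein relate. The pattern searched, on the transcript strand, was a C, 5 bases, the loop CAGTGN and 5 bases that pair with the first 5, with G-T pairs allowed. It occurred in a protein-coding transcript of Fth1, Ftl1, Slc40a1 and Tfrc, against 1.34% of 21877 protein-coding genes of GENCODE M21. It was found in the 5′ untranslated region of Fth1 (chr19:9982738-9982754, plus strand), Ftl1 (chr7:45459785-45459801, minus strand) and Slc40a1 (chr1:45925471-45925487, minus strand). In Tfrc it was found 4 times in the 3′ untranslated region, within 508 bases (chr16:32631225-32631732, plus strand; all mm10). The windows of 29 bases below come from the GENCODE M21 transcripts, run 5′ to 3′, and have the bulged C and the 6-base loop in capitals.
Fth1: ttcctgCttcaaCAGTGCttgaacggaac
Ftl1: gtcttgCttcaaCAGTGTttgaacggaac
Slc40a1: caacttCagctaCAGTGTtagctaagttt
Tfrc 1: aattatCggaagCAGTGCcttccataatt
Tfrc 2: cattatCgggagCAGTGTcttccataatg
Tfrc 3: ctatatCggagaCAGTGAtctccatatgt
Tfrc 4: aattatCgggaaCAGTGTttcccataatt
The 5 bases on each side of the loop are the same in Fth1 and Ftl1. No match in a transcript says only that these letters, in this pairing, are not there, so a member without a match may still carry such a hairpin. The other members lie at chr5:137569840-137587481 (Tfr2), chr9:103204001-103230444 (Trf), chr7:30942368-30944032 (Hamp), chr15:100387898-100425072 (Slc11a2), chr4:40143081-40198338 (Aco1) and chr9:54863789-54912530 (Ireb2).

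In fed mice the 2 tissues differed in 9 of the 10 genes (91.6% of 12584 genes differed; muscle minus liver, averaged over times). Trf, Hamp and Tfr2 were far higher in liver. Trf stood at 7173 ± 1135 FPKM in liver, rank 8 among all genes listed above 0 there, and at 24.8 ± 19.2 FPKM in muscle. Hamp stood at 1878 ± 566 FPKM in liver and at 1.25 ± 1.22 FPKM in muscle. Tfr2 reached 86.6 ± 12.8 FPKM in liver and was at most 0.221 FPKM in any muscle library. Tfrc, the uptake receptor, was the reverse: 6.73 ± 5.33 FPKM in liver and 65.5 ± 9.85 FPKM in muscle, 9.73 times higher (3.50 ± 0.13, adjusted p = 2.17e-32). The ferritin chains parted. Fth1 was close in both (727 ± 105 FPKM in liver and 833 ± 173 FPKM in muscle), whereas Ftl1 was 16.5 times higher in liver (1174 ± 138 against 71.1 ± 11.1 FPKM). The Fth1 difference of 0.19 ± 0.076 passed on the deposited scale (adjusted p = 0.0192) but was 0.01 (adjusted p = 0.878) with median-of-ratios scaling and 1.12 with quantile normalisation, and did not pass without fed ZT16 replicate 5 of muscle (0.14, adjusted p = 0.0562). Slc40a1, Aco1 and Ireb2 were higher in liver, by 3.44, 11.2 and 1.98 times. Slc11a2 was at 6.40 ± 1.42 FPKM in liver and 6.46 ± 0.617 FPKM in muscle (0.04 ± 0.047, adjusted p = 0.428), and the sign of this difference changed with median-of-ratios scaling (-0.12, adjusted p = 0.0078), and it passed with quantile normalisation (0.09, adjusted p = 0.0467). In order of level, fed liver ran Trf, Hamp, Ftl1, Fth1, Tfr2, Aco1, Slc40a1, Ireb2, Tfrc and Slc11a2. Fed muscle ran Fth1, Ftl1, Tfrc, Trf, Slc40a1, Ireb2, Slc11a2, Aco1, Hamp and Tfr2. The ranges of neighbours in this order overlapped, except between Trf and Hamp, Fth1 and Tfr2, and Slc40a1 and Ireb2 in liver, and between Fth1 and Ftl1 and Slc40a1 and Ireb2 in muscle.

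**Figure D1:**
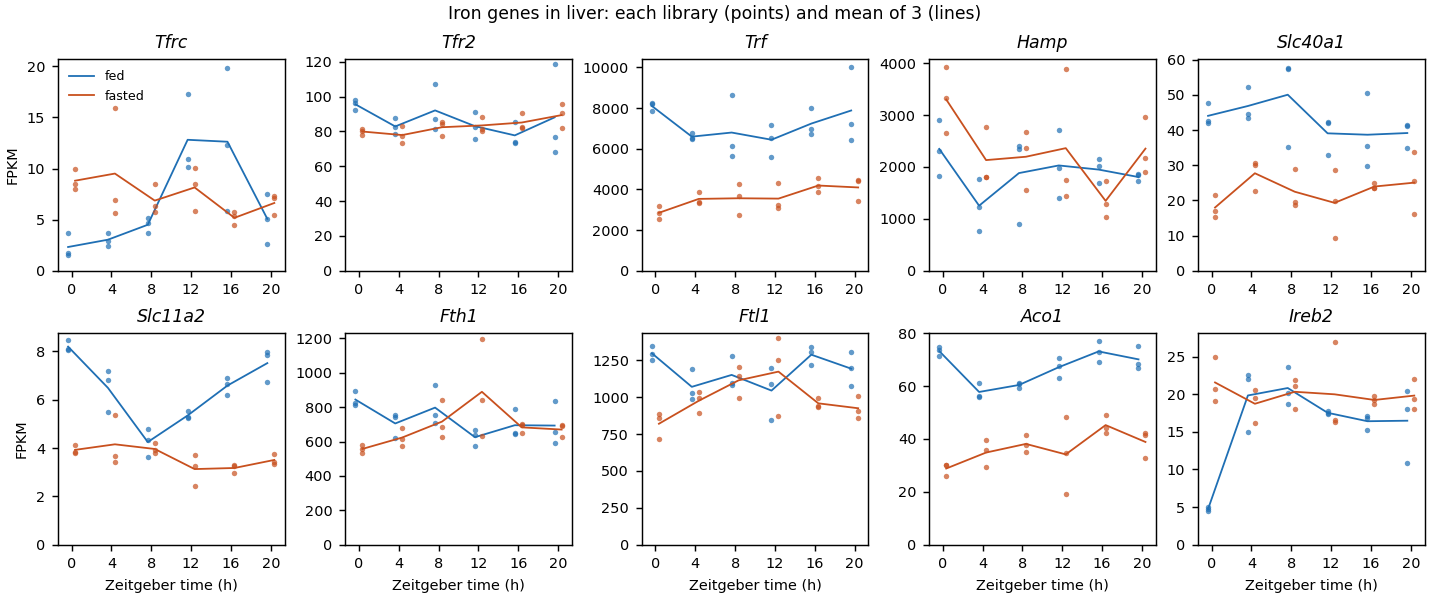
Levels of the 10 iron genes in liver by Zeitgeber time, in FPKM on linear axes from 0. Points are single libraries and lines the means of 3, fed in blue and fasted in orange. Trf, Aco1 and Slc40a1 lie lower in fasted libraries at every time, fed Tfrc rises to 12.8 FPKM at ZT12, and fed Ireb2 is at 4.46 to 5.04 FPKM at ZT0.

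Under the fast, 6 of 10 genes changed in liver, 1 up and 5 down, against 73% of all 10780 genes tested, 25% up and 48% down. In muscle 8 of the 9 genes that passed the filter changed, 3 up and 5 down, against 82.1% of 11223 genes, 30.3% up and 51.8% down. Counts of that size are near the background, so the results lie in the size and direction of single genes. The median effect was -0.17 over the members and -0.13 over all genes in liver, and -0.55 and -0.17 in muscle. Median-of-ratios scaling moved the median of all genes to 0.045 in liver and 0.029 in muscle. It moved the share of higher genes among those called from 34.2 to 54.3% in liver and from 36.9 to 52.8% in muscle, and gave 4 members up and 4 down in liver and 4 up and 5 down in muscle. Tfr2 failed the filter of 1 FPKM in 3 libraries in muscle. Hamp passed it there only through fed libraries, so its muscle test could only give a difference. Between the tissues the effect itself differed in 6 of 10 genes, against 71.7% of 12584 genes.

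**Figure D2:**
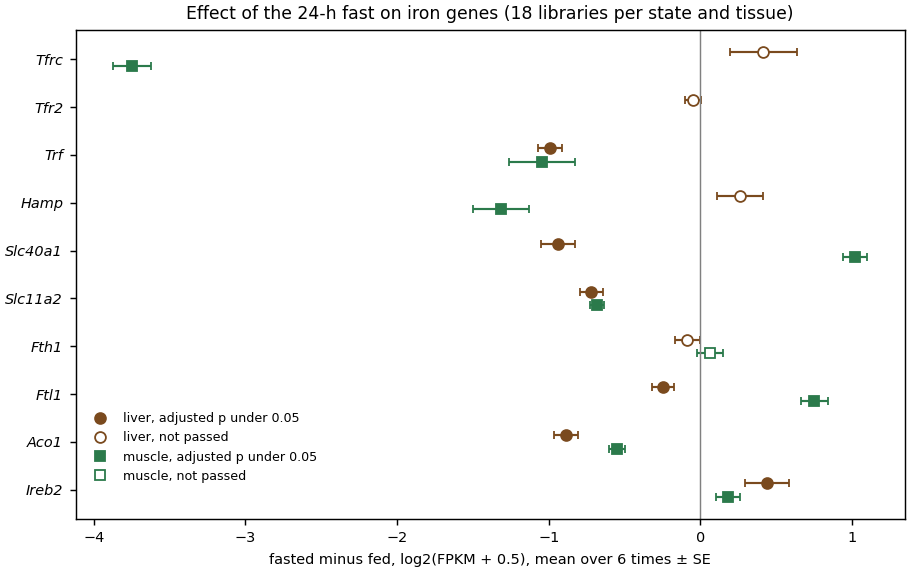
Effect of the fast on each gene, fasted minus fed in log2(FPKM + 0.5), mean over 6 times with bars of 1 SE, in liver (brown circles) and muscle (green squares). Filled symbols passed an adjusted p of 0.05. Tfrc in muscle lies at -3.75, and Slc40a1 and Ftl1 lie on opposite sides of 0 in the 2 tissues.

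Tfrc had the largest change of the 10 genes, in muscle. Its level there was 65.5 ± 9.85 FPKM fed and 4.74 ± 2.03 FPKM fasted, a 13.8-fold difference of means (-3.75 ± 0.12, adjusted p = 1.28e-23). The 18 fed libraries lay between 46.3 and 82.3 FPKM (median 68.0) and the 18 fasted ones between 2.21 and 8.27 FPKM (median 4.05), so no library of one state came near the other. The fall was there at each time, from -3.14 ± 0.23 at ZT0 to -4.48 ± 0.23 at ZT12. In liver the mean over times did not pass (6.73 ± 5.33 fed, 7.53 ± 2.64 fasted; 0.42 ± 0.22, adjusted p = 0.0899), in a fit that counts change of the effect with time as spread. It passed with median-of-ratios scaling (0.60, adjusted p = 0.0129) and quantile normalisation (0.52, adjusted p = 0.0298), and without fasted ZT12 replicate 2, fed ZT12 replicate 5 or fed ZT16 replicate 2 (0.48 to 0.52). Muscle minus liver, the effect on Tfrc differed by -4.16 ± 0.18 (adjusted p = 2.16e-27).

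The liver mean of Tfrc hid a daily course. Fed libraries had 1.51, 1.78 and 3.68 FPKM at ZT0, 3.74, 2.92 and 2.46 at ZT4 and 3.65, 4.71 and 5.14 at ZT8. They had 10.98, 10.1 and 17.3 FPKM at ZT12, 5.81, 19.8 and 12.3 at ZT16 and 7.53, 2.64 and 5.05 at ZT20. Fed levels were thus low through the light phase and high at its end and in the early dark phase. Fasted libraries ranged from 4.43 to 15.9 FPKM over all times. At ZT0 fasted libraries had 9.93, 7.98 and 8.52 FPKM, all above the fed ones, and at ZT16 4.43, 5.77 and 5.34 FPKM, all below them. The effect accordingly went from 1.79 ± 0.36 at ZT0 (adjusted p = 7.72e-05) and 1.38 ± 0.36 at ZT4 (adjusted p = 0.00262) to -1.06 ± 0.36 at ZT16 (adjusted p = 0.0165). The ZT16 call was lost without fasted ZT16 replicate 3, fed ZT16 replicate 2 or fed ZT16 replicate 3 (adjusted p = 0.0564, 0.155 and 0.0502). The shares of all genes called at a single time were 67.4, 44.2, 38.6, 40.7, 47.1 and 45.7% in liver and 56.4, 60.4, 63.9, 63.1, 61.7 and 47.6% in muscle, from ZT0 to ZT20. Fed liver of ZT8 to ZT20 also held skeletal muscle transcripts. At the highest share of muscle markers in a liver library these would bring 0.114 FPKM of Tfrc to fed and 0.215 FPKM to fasted liver.

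**Figure D3:**
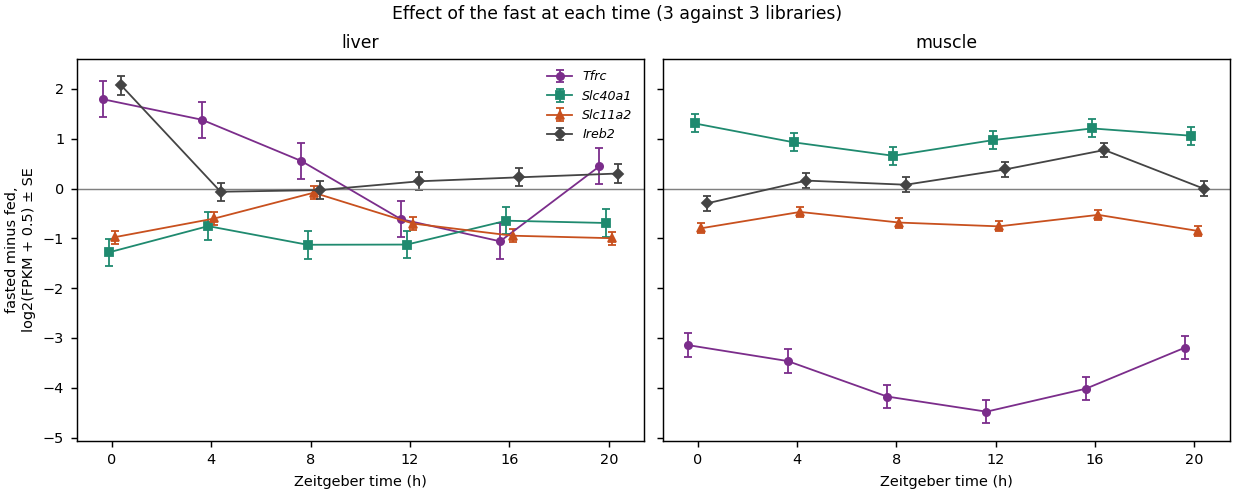
Effect of the fast at each Zeitgeber time for Tfrc, Slc40a1, Slc11a2 and Ireb2, fasted minus fed in log2(FPKM + 0.5) with bars of 1 SE, from 3 against 3 libraries. Liver is on the left and muscle on the right. Tfrc in liver crosses 0 between ZT8 and ZT12 and again between ZT16 and ZT20, and in muscle it stays between -3.14 and -4.48.

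Transferrin itself was 1.98-fold lower in fasted liver. Trf went from 7173 ± 1135 to 3629 ± 638 FPKM (-0.99 ± 0.079, adjusted p = 6.03e-13), with fed libraries between 5604 and 10030 FPKM and fasted ones between 2521 and 4555 FPKM, without overlap. Each of the 6 times showed it, from -1.51 ± 0.17 at ZT0 to -0.79 ± 0.17 at ZT16, where quantile normalisation ended the call (-0.41, adjusted p = 0.0939). In muscle, where Trf is low, it went from 24.8 ± 19.2 to 11.2 ± 5.92 FPKM (-1.04 ± 0.22, adjusted p = 4.52e-05). Fed muscle libraries of ZT0 to ZT12 held liver transcripts, which at the share of albumin would bring a mean of 6.30 FPKM of the 21.4 FPKM of Trf measured there. At ZT16 and ZT20, where that share came to 0.0938 FPKM, the effect was -0.94 (adjusted p = 0.0876). The highest Trf values in muscle, 94.2 FPKM in fed ZT20 replicate 5 and 45.4 FPKM in fed ZT0 replicate 5, came with 74.0 and 45.7 FPKM of Adipoq, an adipocyte gene. Without both libraries the effect was -0.85 (adjusted p = 9.76e-05). The highest fasted Trf value, 29.5 FPKM in ZT20 replicate 5, came with 38.9 FPKM of Adipoq. Over all muscle libraries, mean Adipoq was 17.9 FPKM fed and 8.6 FPKM fasted. The adipocyte genes Cfd (120 and 55.5 FPKM) and Fabp4 (259 and 234 FPKM) were also lower in fasted muscle. The part of adipocytes in the level of Trf and in its effect was not tested.

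Slc11a2, the DMT1 gene, fell in both tissues. In liver it went from 6.40 ± 1.42 to 3.64 ± 0.604 FPKM (-0.72 ± 0.075, adjusted p = 2.80e-10). In muscle it went from 6.46 ± 0.617 (4.97 to 7.29) to 3.84 ± 0.392 FPKM (3.33 to 4.62; -0.68 ± 0.046, adjusted p = 3.35e-15), without overlap. The difference between tissues was 0.04 ± 0.066 (adjusted p = 0.631). Fed liver fell to 3.62, 4.78 and 4.35 FPKM at ZT8, where fasted libraries had 4.19, 3.79 and 3.91 FPKM, and ZT8 was the time at which the effect did not pass (-0.08 ± 0.13, adjusted p = 0.641). Tfr2, which senses transferrin iron in hepatocytes, was at 86.6 ± 12.8 FPKM fed and 83.0 ± 5.46 FPKM fasted in liver. Its effect of -0.05 ± 0.056 (adjusted p = 0.436) turned to 0.15 (adjusted p = 0.0229) under median-of-ratios scaling and to 0.19 (adjusted p = 0.00129) under quantile normalisation. In fed muscle of ZT0 to ZT12 the mean of Tfr2 was 0.0751 FPKM, where liver transcripts at the share of albumin would bring 0.076 FPKM.

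Ferroportin moved in opposite directions in the 2 tissues. In muscle Slc40a1 rose from 12.5 ± 1.8 to 26.3 ± 6.02 FPKM (1.02 ± 0.077, adjusted p = 5.64e-14), and the fed range of 9.96 to 15.5 FPKM lay under the fasted range of 16.7 to 37.6 FPKM. In liver it fell from 43.0 ± 7.91 to 22.7 ± 6.27 FPKM (-0.94 ± 0.11, adjusted p = 7.30e-09). Fed and fasted libraries did not overlap at any of the 6 times in either tissue. The liver effect nevertheless did not pass at ZT16 (-0.65 ± 0.28, adjusted p = 0.0554). The liver calls at ZT4 and ZT20 were lost with both other scalings (adjusted p = 0.115 to 0.166), and without any of 2 single libraries at ZT4 and 5 at ZT20. The difference of the effects was 1.96 ± 0.14 (adjusted p = 1.68e-18) and ranged from 1.78 to 2.00 over the other scalings, pseudocounts and filter. In liver, macrophages (Kupffer cells) are known for high ferroportin. There, 9 of 10 listed macrophage markers fell and none rose, against 48% of all genes down and 25% up. The summed level of these markers had a median of 141 FPKM fed (68.3 to 278) and 79.6 FPKM fasted (40.2 to 126). In muscle 4 of 5 tested macrophage markers fell (51.8% of all genes fell) while Slc40a1 rose. Cd163, a macrophage gene outside this marker list, went the other way. Its means were 1.52 FPKM fed and 2.77 FPKM fasted in liver, and 2.55 and 4.35 FPKM in muscle. The part of macrophages in the liver value was not tested, and in whole tissue fewer cells of a type and less RNA per cell cannot be told apart.

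Hepcidin transcript did not pass in liver. Hamp was at 1878 ± 566 FPKM fed (765 to 2897) and 2281 ± 853 FPKM fasted (1027 to 3920), and these ranges overlap widely (0.26 ± 0.15, adjusted p = 0.125). Removing a trend with transcript length let it pass (0.48, adjusted p = 0.00502), as did median-of-ratios scaling (0.46, adjusted p = 0.00835), and it passed at ZT0 and ZT4 alone (0.66, adjusted p = 0.0117). The single-time effects ran from 0.82 ± 0.35 at ZT4 to -0.56 ± 0.35 at ZT16. Hamp2, a near-identical neighbour whose reads can be shared with Hamp, was far lower and fell from 46.0 ± 26.7 to 10.8 ± 4.99 FPKM (-2.02 ± 0.21, adjusted p = 1.62e-10). In muscle, Hamp was at 1.84 ± 1.07 FPKM in the 12 fed libraries of ZT0 to ZT12 and is listed at 0 in 13 of 18 fasted libraries. At the share of albumin, liver transcripts would bring a mean of 1.65 FPKM to those fed libraries, and the muscle effect of -1.31 ± 0.19 was -0.05 ± 0.28 at ZT16 and -0.22 ± 0.28 at ZT20, where neither passed.

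Ferritin transcripts changed little in liver and by chain in muscle. Ftl1, the light chain, rose in muscle from 71.1 ± 11.1 (56.3 to 95.5) to 122 ± 30.8 FPKM (70.0 to 200; 0.75 ± 0.089, adjusted p = 2.33e-09), with overlap at ZT0 alone among the 6 times. In liver it went from 1174 ± 138 to 994 ± 165 FPKM (-0.25 ± 0.072, adjusted p = 0.00272), a call lost with median-of-ratios scaling (-0.04, adjusted p = 0.600). The tissues differed by 1.00 ± 0.11 (adjusted p = 3.07e-12). Fth1, the heavy chain, did not pass in either tissue: 727 and 690 FPKM in fed and fasted liver (-0.09 ± 0.082, adjusted p = 0.339) and 833 and 873 FPKM in muscle (0.06 ± 0.086, adjusted p = 0.496). In liver the effect was -0.60 ± 0.16 at ZT0 (adjusted p = 0.00171) and 0.46 ± 0.16 at ZT12 (adjusted p = 0.0224), the latter lost without fasted ZT12 replicate 5 or fed ZT12 replicate 4. In muscle it passed with median-of-ratios scaling (0.28, adjusted p = 0.00669) and quantile normalisation (0.20, adjusted p = 0.00431). The 4 highest Fth1 values in muscle, 1198 and 1367 FPKM fed and 1232 and 1398 FPKM fasted, were those of the 4 libraries with the most negative slope of level on transcript length (-0.27 to -0.10), while the other 32 libraries lay between 696 and 977 FPKM. Fth1 has a short transcript, and the part of this slope in its level was not tested.

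**Figure D4:**
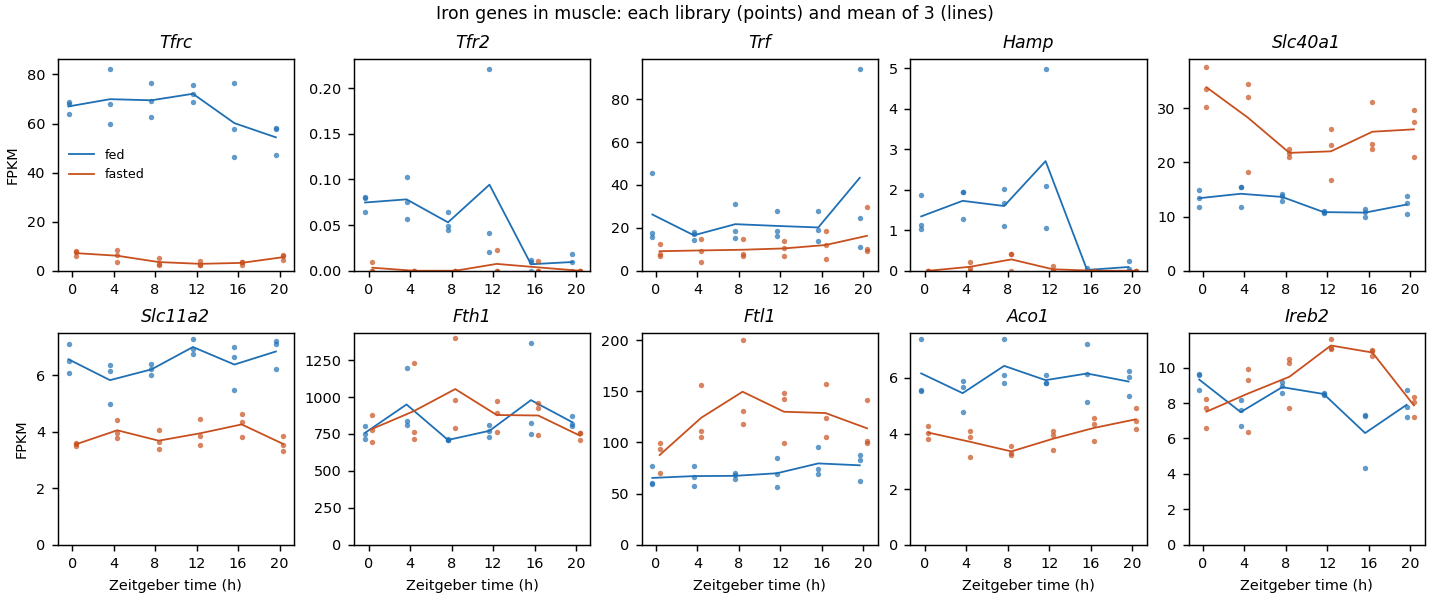
Levels of the 10 iron genes in muscle by Zeitgeber time, in FPKM on linear axes from 0. Points are single libraries and lines the means of 3, fed in blue and fasted in orange. Fed and fasted libraries stand apart for Tfrc, Slc40a1 and Slc11a2. Tfr2 is near 0 in both states, at most 0.221 FPKM, and Hamp is near 0 in fasted libraries and in fed ones of ZT16 and ZT20.

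Of the 2 iron sensors, Aco1 fell in both tissues, while the calls for Ireb2 depended on the times, libraries and settings used. Aco1, the IRP1 gene, fell in liver from 66.9 ± 6.73 (56.0 to 77.1) to 36.7 ± 7.84 FPKM (19.2 to 49.2; -0.89 ± 0.080, adjusted p = 9.32e-12), without overlap. In muscle it fell from 6.00 ± 0.717 to 3.94 ± 0.486 FPKM (-0.55 ± 0.053, adjusted p = 2.05e-11), with fed above fasted at each of the 6 times. The smaller fall in muscle (difference 0.34 ± 0.087, adjusted p = 0.000623) did not pass with quantile normalisation (0.16, adjusted p = 0.0859). Ireb2, the IRP2 gene, rose in liver from 16.0 ± 5.96 to 19.9 ± 2.80 FPKM (0.44 ± 0.15, adjusted p = 0.00775), but on the deposited scale this rested on ZT0. Fed libraries of ZT0 had 4.46, 5.04 and 4.71 FPKM, and the other 15 fed libraries 10.9 to 23.6 FPKM. Without ZT0 the effect was 0.11 (adjusted p = 0.229). With median-of-ratios scaling, single-time effects passed at ZT16 (0.47, adjusted p = 0.0464) and ZT20 (0.46, adjusted p = 0.0434), where they did not on the deposited scale. The fed ZT0 liver libraries also had length slopes of -0.17 to -0.092, against 0.068 to 0.10 in fasted ones of ZT0. The part of this slope in the Ireb2 values was not tested. In muscle Ireb2 went from 8.07 ± 1.25 to 9.25 ± 1.72 FPKM (0.18 ± 0.080, adjusted p = 0.0373), a call lost in 12 of 36 fits that left out 1 library (effect 0.13 to 0.21). The muscle call was also lost with no filter (0.18, adjusted p = 0.0513) and after removal of the length trend (0.12, adjusted p = 0.0975).

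The effect of the fast changed with time for 5 of 10 genes in liver (40.7% of all genes) and 3 of 9 in muscle (22.9%). For Tfrc in liver the largest and smallest effects lay 2.85 apart (adjusted p = 0.000283), and 2.44 apart without ZT0 (adjusted p = 0.0167). For Slc11a2 in liver they lay 0.91 apart (adjusted p = 0.00124), also without ZT0 (adjusted p = 0.0191). Ireb2 (2.13), Fth1 (1.06) and Ftl1 (0.82) in liver lost the call without ZT0, with adjusted p of 0.721, 0.277 and 0.224. Ftl1 also lost it with quantile normalisation (0.54, adjusted p = 0.0514) and after removal of the length trend (0.47, adjusted p = 0.0666). In muscle the genes were Tfrc (1.34, adjusted p = 0.00768), Ireb2 (1.07, adjusted p = 0.00437) and Hamp (2.34, adjusted p = 0.000107), whose fed level in muscle moves with the liver transcripts. The Ireb2 effect in muscle peaked at ZT16 (0.77 ± 0.15, adjusted p = 4.89e-05), and its change with time did not pass with median-of-ratios scaling (adjusted p = 0.0510).

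Fitted with a 24-h cosine, 3 genes were rhythmic in fed liver (39.7% of all genes), 3 in fasted liver (31%) and 5 differed between the states (32.4%). Fed Tfrc had a log2 amplitude of 1.16 and a fitted peak at ZT13.8 (adjusted p = 1.03e-06), against 0.26 when fasted (adjusted p = 0.337), and the rhythms differed (adjusted p = 0.000112; 0.00493 without ZT0). Fed Slc11a2 had an amplitude of 0.39 and a peak at ZT21.6 (adjusted p = 9.97e-06), against 0.19 and ZT3.13 when fasted (adjusted p = 0.0289), with a difference that passed (adjusted p = 0.00124; 0.0140 without ZT0). The fasted rhythm of Slc11a2 was lost without fasted ZT4 replicate 3 (adjusted p = 0.112) or fasted ZT16 replicate 4 (adjusted p = 0.0614). It was also lost with median-of-ratios scaling (adjusted p = 0.0586), quantile normalisation (adjusted p = 0.0813) and without ZT0 (adjusted p = 0.0756). Fed Ireb2 (0.64) and the fasted rhythms of Fth1 (0.25) and Ftl1 (0.22) lost their calls without ZT0, as did the differences for these genes. Fasted Fth1 also lost it without fasted ZT12 replicate 5 (0.17, adjusted p = 0.079), while Aco1 (0.27) and Hamp (0.52) then had fasted rhythms that passed. In muscle 1 gene was rhythmic when fed (4.46% of genes), namely Hamp with its liver transcripts, and 5 when fasted (47.4%), and 3 differed (32.6%). Fasted Tfrc in muscle had an amplitude of 0.65 and a peak at ZT0.269 (adjusted p = 1.42e-06), with 7.62, 7.95 and 5.98 FPKM at ZT0 and 3.79, 2.47 and 2.21 FPKM at ZT12. The fed rhythm did not pass (0.18, adjusted p = 0.637), and the rhythms differed (adjusted p = 0.00017). Smaller fasted rhythms in muscle were those of Slc40a1 (0.27), Ireb2 (0.29), Aco1 (0.17) and Ftl1 (0.27), the last lost without any of 3 single libraries (adjusted p up to 0.102).

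Promoters were read because Tfrc had a daily course and Hamp answers to BMP signals. RefSeq (GRCm38.p6) gave 11 promoters of 7 members (Tfrc, Tfr2, Hamp, Fth1, Ftl1, Aco1 and Ireb2), and the 250 bases before each start were searched on both strands. The E-box CACGTG (6.02% of 32851 promoters) and the D-box TTATGTAA (0.819%) were in none of them, and GGCGCC, the core of a BMP-response element (9.59%), was in that of Hamp and in 1 of Tfrc.

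Exonic and intronic signal, the latter a measure of unspliced RNA, were compared to see whether changes in mature transcripts came with changes in precursors. In muscle the difference passed for 5 of 8 genes tested, with the exonic effect below the intronic one in all 5 and above it in 0, against 52.5% of all genes, 25.7% below and 26.9% above. The 5 include Trf and Hamp, and liver transcripts can be part of their fed values at ZT0 to ZT12. This count is therefore not read as a result about the members. For Tfrc, exonic signal fell by 3.79 ± 0.13 on the log2 scale and intronic signal by 1.78 ± 0.15. Intronic levels were 3.86 ± 1.18 FPKM fed (0.766 to 5.62) and 0.742 ± 0.336 FPKM fasted (0.255 to 1.63). The exonic minus intronic effect was -2.01 ± 0.13 (adjusted p = 2.85e-14), or -1.65 with a pseudocount of 0.1. Both ferritin genes had intronic rises that the exons did not match. Intronic Fth1 in muscle rose from 10.1 ± 2.15 FPKM (6.88 to 13.9) to 42.7 ± 23.2 FPKM (18.3 to 105), without overlap (1.89 ± 0.13, adjusted p = 1.37e-14), while its exonic effect was 0.04 ± 0.082 (difference -1.85 ± 0.098, adjusted p = 8.50e-17). Intronic Ftl1 rose from 59.2 ± 17.8 to 190 ± 62.1 FPKM (1.63 ± 0.14, adjusted p = 2.89e-12), against an exonic rise of 0.72 ± 0.087 (difference -0.91 ± 0.11, adjusted p = 3.41e-08). The fasted intronic mean of Ftl1 thus lay above its fasted exonic mean of 155 FPKM, and the reason was not tested. Slc40a1 rose in exons (1.01 ± 0.080) and introns (1.22 ± 0.15), and their difference of -0.21 ± 0.11 did not pass (adjusted p = 0.0992), though it did with quantile normalisation (-0.37), a pseudocount of 0.1 (-0.45) and without fed ZT4 replicate 5 (-0.25). Trf (-1.23 ± 0.16) and Hamp (-0.96 ± 0.33) were the other 2, both in fed libraries that held liver transcripts, whose part was not tested. The call for Hamp was lost with a pseudocount of 0.1 (-1.57, adjusted p = 0.0532).

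**Figure D5:**
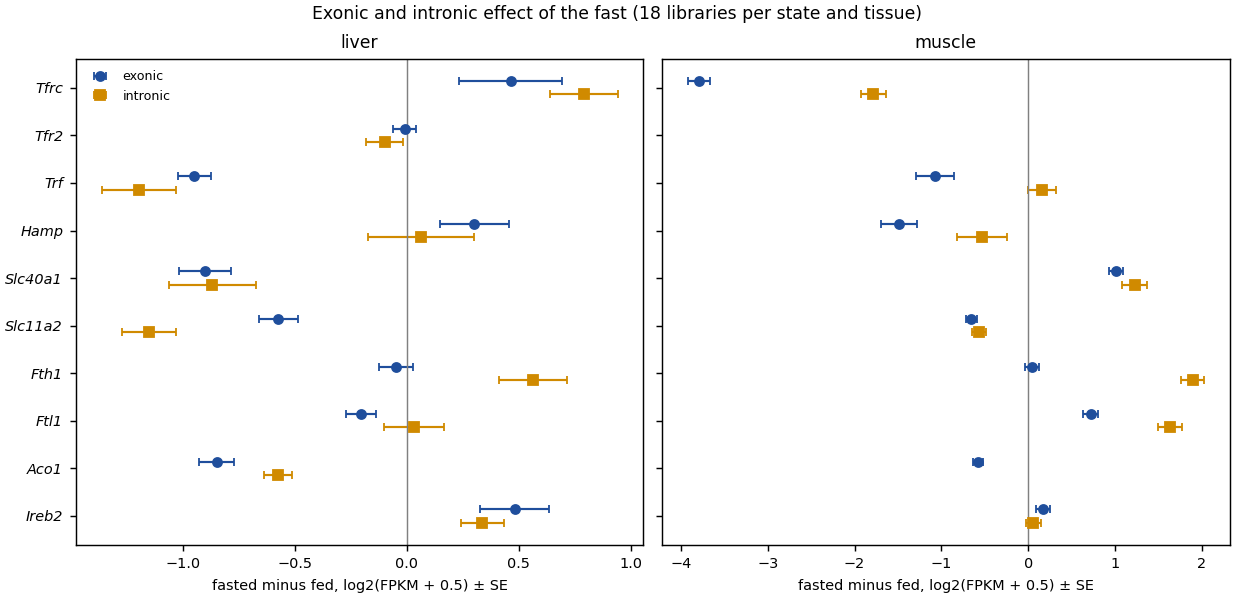
Effect of the fast on exonic (blue circles) and intronic signal (orange squares) of each gene, fasted minus fed in log2(FPKM + 0.5) with bars of 1 SE, from 18 libraries per state, in liver (left) and muscle (right). The horizontal scales differ. In muscle, intronic Fth1 lies at 1.89 and exonic Fth1 at 0.04, and exonic Tfrc lies 2.01 below intronic Tfrc.

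In liver, exonic minus intronic effects passed for 3 of 10 genes (38.8% of all genes). For Slc11a2 intronic signal fell more than exonic (-1.15 ± 0.12 against -0.57 ± 0.086; difference 0.58 ± 0.11, adjusted p = 0.000156). For Fth1 intronic signal rose by 0.56 ± 0.15 while the exonic effect was -0.05 ± 0.074 (difference -0.61 ± 0.11, adjusted p = 8.41e-05), though neither the intronic effect nor the difference passed at ZT0 and ZT4 alone. For Aco1 the difference was -0.27 ± 0.094 (adjusted p = 0.0205), lost with a pseudocount of 0.1 (-0.17, adjusted p = 0.183) and without ZT0 (-0.22, adjusted p = 0.128). Tfrc introns rose in liver (0.79 ± 0.15, adjusted p = 4.45e-05), and its exons did not pass (0.46 ± 0.23, adjusted p = 0.0687). The exonic effect did pass with median-of-ratios scaling (0.62), quantile normalisation (0.54), at ZT0 and ZT4 alone (1.70), at ZT0 alone (1.95) and in 7 of 36 fits that left out 1 library. Intronic changes passed for 7 of 10 members in liver and 5 of 8 in muscle (59.7 and 69.7% of all genes), and exonic ones for 6 of 10 and 7 of 9 (72.7 and 82.5%). The intronic table may be scaled to a total of its own, in which case an intronic effect is a change of share within the intronic signal.

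Other genes of iron handling were read from lists by role, whose counts stand beside the shares over all genes, and those shares depend on the scaling as given above. Other iron and heme transport had 15 genes tested in liver, with 7 up, 6 down and 2 not passing (25% of all genes up and 48% down), and 13 in muscle, with 7 up, 4 down and 2 not passing (30.3% of all genes up and 51.8% down). In muscle the largest was Slc39a14 (ZIP14), a transporter that takes up iron not bound to transferrin, from 2.66 ± 0.367 to 40.3 ± 23.1 FPKM (3.52 ± 0.17, adjusted p = 5.30e-19). Hmox1, the heme oxygenase that frees iron from heme, went from 5.22 ± 0.986 to 56.0 ± 22.5 FPKM (3.22 ± 0.13, adjusted p = 7.25e-21). Lcn2, which binds iron-loaded siderophores, rose by 1.82 ± 0.11, and Slc25a37 (mitoferrin 1, the mitochondrial iron importer) fell by 0.86 ± 0.058, while Lrp1 did not pass (-0.08 ± 0.089). The fed mean of Lcn2, 0.384 FPKM, lay under the filter of 1 FPKM, and its fasted mean was 2.77 FPKM. A gene that passes that filter mainly through 1 state can hardly test as unchanged. In liver Slc25a37 (-1.45 ± 0.090) and Slc46a1, a folate and heme transporter (-0.98 ± 0.067), fell, Hmox2 (0.47 ± 0.053) and the hemoglobin scavenger Cd163 (0.68 ± 0.11) rose, and Hmox1 did not pass (0.23 ± 0.15).

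Genes of iron reduction and oxidation had 4 of 5 tested down and 0 up in liver (48 and 25% of all genes), and 3 of 4 down and 1 up in muscle (51.8 and 30.3% of all genes). Steap3, the endosomal ferrireductase of the transferrin cycle, fell in liver from 7.06 ± 2.11 to 3.41 ± 1.25 FPKM (-0.96 ± 0.12) and in muscle from 10.5 ± 1.03 to 2.60 ± 0.730 FPKM (-1.86 ± 0.082, adjusted p = 3.35e-20). Steap4 fell in liver (-1.67 ± 0.089) and muscle (-0.34 ± 0.066), and Cyb561a3 in both (-0.67 ± 0.056 and -0.57 ± 0.053). Steap2 fell in liver (-0.45 ± 0.069), where its means of 0.861 FPKM fed and 0.497 FPKM fasted both lay under the filter of 1 FPKM. The ferroxidase gene Cp was at 0.02 ± 0.061 in liver and rose by 0.19 ± 0.088 in muscle.

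Regulators of hepcidin split: of 18 tested in liver, 6 were up, 8 down and 4 not passing, and of 16 in muscle, 6 up, 7 down and 3 not passing, which is near the shares over all genes (25% up and 48% down in liver, 30.3% up and 51.8% down in muscle). Tmprss6, the protease that dampens hepcidin signalling, fell in liver from 160 ± 22.6 to 88.2 ± 11.3 FPKM (-0.85 ± 0.061, adjusted p = 3.31e-14), with Smad6 (-0.66 ± 0.086), Smad1 (-0.60 ± 0.076) and the BMP receptor gene Acvr1 (-0.56 ± 0.065). Id1, a target of BMP signalling as Hamp is, did not pass (-0.21 ± 0.18). In muscle Hfe2 (hemojuvelin, a BMP co-receptor) fell from 319 ± 29.8 to 142 ± 34.0 FPKM (-1.20 ± 0.076), Smad6 (-0.96 ± 0.064) and Acvr1 (-0.93 ± 0.066) fell, Smad5 rose (0.70 ± 0.059) and Acvr2a did not pass (-0.17 ± 0.082). Smad6 had fasted means of 0.822 FPKM in liver and 0.556 FPKM in muscle, both under the filter of 1 FPKM.

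Of 9 genes that handle ferritin and the IRPs, 3 rose and 4 fell in liver (25 and 48% of all genes) and 4 rose and 3 fell in muscle (30.3 and 51.8% of all genes). Ncoa4, the receptor that delivers ferritin to lysosomes, rose in liver from 2.90 ± 0.441 to 7.66 ± 1.56 FPKM (1.25 ± 0.076, adjusted p = 6.10e-16) and did not pass in muscle (-0.08 ± 0.055, adjusted p = 0.150). Fbxl5, which marks IRP2 for degradation, fell in liver (-0.45 ± 0.066) and muscle (-0.23 ± 0.044), whereas its partner Cul1 rose in both (0.41 ± 0.080 and 0.81 ± 0.063). The iron chaperone gene Pcbp2 rose in both (0.33 ± 0.059 and 0.26 ± 0.037), Pcbp1 rose in muscle (0.34 ± 0.053), and Bola2 did not pass in liver (-0.14 ± 0.11). Of 24 genes of iron-sulfur cluster assembly, 4 rose and 14 fell in liver and 4 rose and 17 fell in muscle, with medians of -0.21 and -0.28. Over all genes 25% rose and 48% fell in liver and 30.3% rose and 51.8% fell in muscle, with medians of -0.13 and -0.17. Fdx1 (-1.10 ± 0.063), Fam96b (-0.70 ± 0.081), Nubp2 (-0.57 ± 0.080) and Nfs1 (-0.48 ± 0.060) fell in liver, and Iba57 did not pass (0.10 ± 0.071). Glrx5 (-0.71 ± 0.071), Bola3 (-0.68 ± 0.062) and Isca1 (-0.59 ± 0.036) fell in muscle, Mms19 rose (0.60 ± 0.054) and Hspa9 did not pass (0.07 ± 0.038). Among other genes known for an iron-responsive element, Alas2, a heme synthesis gene, fell in liver and muscle (-1.68 ± 0.11 and -0.46 ± 0.080). Epas1 fell in liver (-0.27 ± 0.066) and rose in muscle (0.28 ± 0.056), Cdc42bpa rose in liver (0.47 ± 0.12) and Cdc14a did not pass in muscle (-0.23 ± 0.16).

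Genes whose course over the 12 groups of a tissue was most like that of the most changed member were found by Pearson's r of group means. For Trf in liver they were Habp2 (r = 0.995), Lect2 (0.992), Bst2 (0.991), Slc13a3 (0.99) and AW112010 (0.989). For Tfrc in muscle they were Prkag3 (r = 0.998), 2310065F04Rik (0.997), 1110019D14Rik (0.997), Maged2 (0.997) and Nqo2 (0.996). Among group means that share the step between fed and fasted, such values are a description only.

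The libraries as a whole bore on these results in 3 ways. Depth, roughly estimated from the steps of low values, came to 17.1 to 35.1 M reads a library. Only 47.6% of low values lay within 0.1 of a whole read at that depth (20% by chance). The tissue labels held, with summed hepatocyte markers of 48590 to 75150 FPKM in liver and summed skeletal muscle markers of 59600 to 104300 FPKM in muscle. Fed muscle of ZT0 to ZT12 had 38.3 to 171 FPKM of hepatocyte markers, against 0.0654 to 5.64 FPKM in the other muscle libraries, and fed liver of ZT8 to ZT20 had 38.5 to 138 FPKM and fasted liver of ZT4 4.15 to 260 FPKM of muscle markers, against 0.408 to 1.65 FPKM in the other liver libraries. Summed endothelial markers had medians of 52.8 FPKM fed and 46.9 FPKM fasted in liver and 68.7 and 58.1 FPKM in muscle. Summed erythroid markers, for which 3 of 6 genes were measured, lay between 0 and 13.9 FPKM.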

How the data were processed

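RNA-seq of mouse liver and gastrocnemius muscle was deposited as 3 tables of 72 columns: whole-gene, exonic and intronic FPKM. Per the labels' protocols, RNA was taken up in TRIzol and libraries were made with a TruSeq kit that does not mark strand, so antisense reads cannot be told apart. The submitters' processing notes name mm10 and CASAVA 1.8.2. No other tool is named in the sources used here. FPKM as deposited by the authors carries no read count. Whole reads could not be recovered (47.6% of low values within 0.1 of a whole read, 20% by chance), so no count test was run.

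Genes with at least 1 FPKM in 3 libraries of a tissue were tested with limma 3.58.1 (R 4.3.3, trend) on log2(FPKM + 0.5). Effects at single times and tissue differences came from fits with a mean for each group. Effects of the fast over all times in a tissue came from fits with a level for each time and a shared term for the fast. Exonic, intronic and exonic minus intronic effects used the same kind of fit. In it, a change of the effect with time counts as spread and widens the SE. Rhythms were 24-h cosines, and p-values were adjusted over all genes tested. Sequences were read with Python 3.11.15. All 10 members were named, and of each list, per tissue, up to 4 genes of smallest adjusted p and the gene of largest change that did not pass. The members and lists were chosen with earlier results of these data known. Checks on simulated data used the same scripts. Flvcr1, Ftmt, Hba-a1, Hba-a2 and Hbb-bt were not analysed here. One gene of the list of other genes with an iron-responsive element, and the counts over that list, are not reported here.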

Additional observations from a re-analysis of the deposited data

Results flagged for a closer look

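The effect of the fast, muscle minus liver, differed between tissues for 6 of 10 genes by the test of the difference itself, against 71.7% of 12584 genes. The 6 were Tfrc (-4.16), Slc40a1 (1.96), Hamp (-1.57), Ftl1 (0.999), Aco1 (0.336) and Ireb2 (-0.259), all in log2(FPKM + 0.5). The value for Hamp comes with liver transcripts in fed muscle, and their part in it was not tested. The liver effect of Ireb2 lost its call without ZT0, and its tissue difference was not fitted without ZT0. That of Aco1 did not pass with quantile normalisation (0.16, adjusted p = 0.0859). With the replicate number as a block, neither Aco1 (0.28, adjusted p = 0.106) nor Ireb2 (-0.16, adjusted p = 0.158) passed.

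The effect also differed between sampling times for 5 of 10 genes in liver (40.7% of all genes) and 3 of 9 in muscle (22.9%). In liver the largest and smallest effects lay 2.85 apart for Tfrc, 2.13 for Ireb2, 1.06 for Fth1, 0.914 for Slc11a2 and 0.821 for Ftl1. In muscle they lay 2.34 apart for Hamp, 1.34 for Tfrc and 1.07 for Ireb2. In liver, Ireb2, Fth1 and Ftl1 lost the call without ZT0.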

How the results depend on the processing

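Leaving out ZT0, leaving out the 2 fed muscle libraries of highest Adipoq, and removing the length trend from effects at or across times were chosen after seeing the data. Without ZT0, 748 liver genes changed their effect with time, 2427 were rhythmic when fed, 856 differed in rhythm and 1917 differed between exons and introns. With no filter, exonic minus intronic effects passed for 5503 genes in liver and 7533 in muscle. At ZT16 and ZT20 alone, intronic effects passed for 3927 and exonic minus intronic ones for 1960 muscle genes. Leaving out 1 library gave 7700 to 8064 liver genes changed by the fast. Signs turned for Tfr2 in liver (0.15 with median-of-ratios scaling and 0.19 with quantile normalisation; exonic 0.16 and 0.19), intronic Fth1 in liver at ZT0 alone (-0.019) and the fed tissue difference of Slc11a2 with median-of-ratios scaling (-0.12). A pseudocount of 1 changed no call among 284 values. The cause of these changes was not tested.

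Replicate numbers were not used as pairs in the main fits. Same-numbered deviations correlated between -0.118 and 0.311 in liver, -0.153 and 0.456 in muscle and -0.275 and 0.217 between tissues. Libraries of different numbers were not correlated for comparison, so these values cannot decide whether the numbers mark pairs. With the replicate number as a block, intronic effects in liver passed for 3510 genes and exonic minus intronic ones for 1239, and 8 of 84 values lost their call. These were Ftl1 in liver (-0.20, adjusted p = 0.0853; exonic -0.17), Ireb2 in muscle (0.21, adjusted p = 0.108), intronic Ireb2 in liver (0.34), the tissue differences of Aco1 (0.28, adjusted p = 0.106) and Ireb2 (-0.16, adjusted p = 0.158), and exonic minus intronic effects of Aco1 in liver (-0.34) and Hamp in muscle (-0.75).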
